A study of Mus musculus with 24 samples.

Results

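Genes of fatty acid oxidation, targets of PPARα and PPARα itself were examined in liver and hypothalamus of ob/ob mice. The mice were given regular γ-oryzanol or γ-oryzanol encapsulated in nanoparticles of the polymer PLGA (Nano-Orz). The set was a list of 33 genes, and its members were all probe sets that the array annotation gives to 1 of these symbols alone. This rule found 55 probe sets for 31 genes, of 45101 probe sets and 18194 genes in the series, and 17 of the 31 genes had several probe sets. Acsl1, an acyl-CoA synthetase, had no probe set under its symbol alone, and Cyp4a10 was named only on a probe set shared with Cyp4a31, so both were left out.

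The series holds 24 Affymetrix expression arrays of male ob/ob mice, which lack functional leptin and become obese and diabetic. All mice were treated by mouth for 4 weeks and were 9 weeks old when liver and hypothalamus were taken. The paper states free access to food, and a choice of chow and high-fat diet in its preference test, but does not name the diet of the array mice. The 8 groups of 3 arrays were, in each of the 2 tissues, regular γ-oryzanol with its methylcellulose vehicle and Nano-Orz with its own vehicle. The paper states that loaded particles were suspended in water, but not whether the Nano-Orz vehicle held empty particles. Effects of the polymer and of γ-oryzanol may therefore not be told apart in that arm. The array mice were chosen as representative of their groups, and there was no lean control among the arrays. Whether liver and hypothalamus came from the same mice is not given. The labels give no dose. In the paper regular γ-oryzanol was given every day, at a far higher dose per body weight than Nano-Orz. The paper also describes effects of Nano-Orz given every 2 weeks, but does not name the Nano-Orz dose or schedule of the array mice. The arms thus differed in dose, and may have differed in schedule, as well as in encapsulation, and these were not tested apart.

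PPARα is a nuclear receptor that binds fatty acids and, as a heterodimer with RXR, switches on genes of fatty acid oxidation in the fasted liver. Its targets activate fatty acids and carry them into mitochondria through the carnitine shuttle, shorten them by β-oxidation there and in peroxisomes, and hydroxylate them at the ω end. Fgf21, a hormone that the liver releases on fasting, is a further target.

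The deposited signals were on the log2 scale of the distribution free weighted method (DFW), which draws arrays together, so that 99.6% of probe sets in regular liver, 99.1% in Nano-Orz liver, 99.7% in Nano-Orz hypothalamus and slightly fewer than in these 3 in regular hypothalamus spanned less than 0.001 over the 6 arrays of a comparison. Differences therefore rank probe sets but are not fold changes, and they are given below as γ-oryzanol minus vehicle in thousandths of a log2 DFW unit (thousandths). Probe sets were called by rank product over the 9 pairs of γ-oryzanol and vehicle arrays where the estimated proportion of false positives (pfp) was below 0.05. Of these calls, 62.2% to 71.4% lay among the 1% of probe sets that spread most widely within groups. limma, a linear model with moderated variances, gave the standard errors (SE) and adjusted p, and called no probe set of the series within any tissue and arm at an adjusted p under 0.05. Without adjustment, 1959 to 2753 of the 45101 probe sets had a limma p under 0.05. The arrays fitted their labelled tissue, with a mean signal of 13.9 log2 DFW units over 14 hepatocyte marker probe sets in liver and of 9.28 over 10 hypothalamus marker probe sets in hypothalamus of the regular arm, against 6.59 for the latter in liver.

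Most genes of the set were expressed far more strongly in liver than in hypothalamus. In the vehicle arrays of the regular arm, 52 of the 55 probe sets had a higher signal in liver and 3 a lower one, and the median difference was 2.78 log2 DFW units, against -0.48 over all probe sets, of which 17.5% were higher in liver. In the Nano-Orz arm, 51 were higher and 4 lower, with a median of 2.70 against -0.46. These levels were set across tables that seem to have been quantified separately and were not tested. The widest gap was that of Acaa1b, a peroxisomal thiolase, at 14.41 log2 DFW units in liver and 6.46 in hypothalamus. Cyp4a14, a fatty acid ω-hydroxylase, followed at 13.12 and 6.02, then Ehhadh, the peroxisomal bifunctional enzyme, at 12.60 and 6.66, and Vnn1, a pantetheinase, at 11.84 and 6.27. Fgf21 was near the low end in both tissues, with 7.13 in liver and 6.60 in hypothalamus. The probe sets that were lower in liver of the regular arm belonged to Crat, carnitine acetyltransferase, and to 2 of the 3 of Hadhb, the β-subunit of the mitochondrial trifunctional protein, while the other probe sets of both genes were higher.

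**Figure D1:**
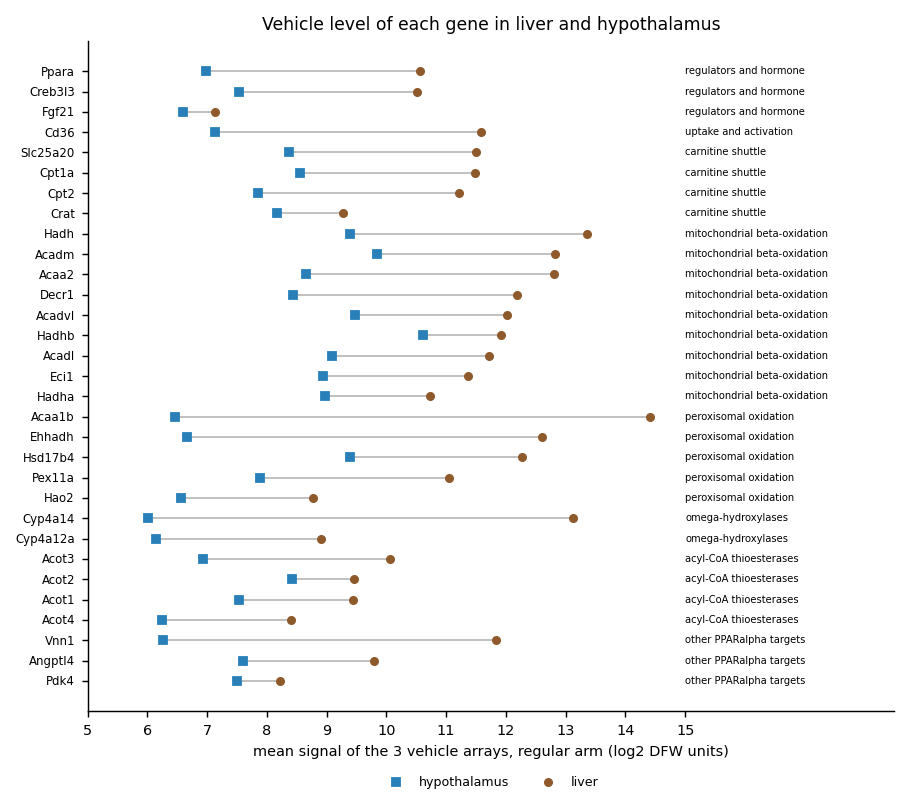
Mean log2 DFW signal of the 3 vehicle arrays of the regular arm in hypothalamus (squares) and liver (circles) for 31 genes, each by its probe set of highest mean over the liver arrays, ordered by role. Acaa1b and Cyp4a14 show the widest gaps, and Fgf21 and Pdk4 lie close together in both tissues.

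Promoters from RefSeq (GRCm38.p6), from 250 bases before to 50 after the start, were found for 24 of the 33 genes. Those of 4 members that were called in a comparison are printed because the PPARα response element is a direct repeat of AGGTCA spaced by 1 base. Capitals mark AGGTCA (or TGACCT, its reverse complement) and TATAAA (or TTTATA).
Fgf21, chr7:45615441-45615740, minus strand: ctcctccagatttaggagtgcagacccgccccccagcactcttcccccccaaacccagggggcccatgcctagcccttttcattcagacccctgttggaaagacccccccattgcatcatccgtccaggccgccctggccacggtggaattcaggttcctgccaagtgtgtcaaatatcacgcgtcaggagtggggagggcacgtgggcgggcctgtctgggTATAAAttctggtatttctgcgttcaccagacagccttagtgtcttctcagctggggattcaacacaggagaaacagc
Hao2, chr3:98893181-98893480, minus strand: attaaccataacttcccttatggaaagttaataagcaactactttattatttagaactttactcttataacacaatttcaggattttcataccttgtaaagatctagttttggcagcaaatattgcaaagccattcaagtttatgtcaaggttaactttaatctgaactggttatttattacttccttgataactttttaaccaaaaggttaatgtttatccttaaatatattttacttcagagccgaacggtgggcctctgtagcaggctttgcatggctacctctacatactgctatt
Acot3, chr12:84051894-84052193, plus strand: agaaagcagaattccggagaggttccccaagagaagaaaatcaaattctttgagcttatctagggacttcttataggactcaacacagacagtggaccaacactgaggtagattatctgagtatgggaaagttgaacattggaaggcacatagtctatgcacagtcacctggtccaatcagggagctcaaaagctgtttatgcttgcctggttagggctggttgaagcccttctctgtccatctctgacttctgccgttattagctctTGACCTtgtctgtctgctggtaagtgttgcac
Acaa1b, chr9:119157044-119157343, minus strand: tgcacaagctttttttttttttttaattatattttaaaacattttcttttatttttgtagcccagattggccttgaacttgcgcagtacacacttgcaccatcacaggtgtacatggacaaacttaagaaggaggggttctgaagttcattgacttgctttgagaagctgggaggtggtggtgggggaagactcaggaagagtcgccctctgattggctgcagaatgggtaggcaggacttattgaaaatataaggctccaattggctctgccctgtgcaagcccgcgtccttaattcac
The Fgf21 promoter held TATAAA 28 bases before the start, and the printed promoter of Acot3 held TGACCT from base 19 after it. Acot3 had 2 promoters, of which that with the lower start coordinate was printed. Neither motif was found in these windows of Hao2 and Acaa1b. Read on both strands, AGGTCA was in 8 of the 27 promoters of 7 member genes (Acadm, Acadvl, Acot3, Acot4, Cd36, Cpt1a and Creb3l3), or 29.6%, against 16.3% of all 32851 promoters, and TATAAA was in 2, those of Fgf21 and Acot4, against 13.6% of all. The full repeat AGGTCANAGGTCA, which contains the shorter motif, was in none of the 27 and in 0.0396% of all. With so small a share over all promoters, its absence from 27 does not set the members apart. Only exact matches in these windows were searched, so elements outside them or with other letters were not examined.

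In liver after regular γ-oryzanol, 1 of the 55 probe sets was called higher, that of Hao2, and 2 lower, those of Fgf21 and Cyp4a12a. Across the whole array these calls took in 0.182% (higher) and 0.222% (lower) of the probe sets. The other 52 probe sets were not called, and 37 of the 55 differed from vehicle by less than 0.01 thousandths. No member passed limma's adjustment (smallest adjusted p = 1), as 0% of all probe sets did, and 2, those of Fgf21 and Pdk4, had an unadjusted p under 0.05. In 2 probe sets every γ-oryzanol array was above every vehicle array and in 3 every one was below, where 5.02% and 4.23% of all probe sets had no overlap. In whole tissue, less RNA per cell and fewer cells of a type cannot be told apart.

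Of the 3 called members, Fgf21 alone had no overlap between the groups. Its signals on the vehicle arrays lay -0.00858, 0.0157 and -0.0071 thousandths from their mean, and those on the γ-oryzanol arrays -0.215, -0.114 and -0.0982. All 3 treated arrays were thus below all 3 vehicle arrays. The difference was -0.143 thousandths (SE 0.0343, n = 3 per group, pfp 0.0188, limma adjusted p = 1). Without any 1 of the vehicle arrays Fgf21 was no longer called, with a pfp of up to 0.211 and differences of -0.147 to -0.135, while it stayed called without any 1 of the γ-oryzanol arrays. The call was also lost after quantile normalization, at -0.119. Pdk4, the kinase that shuts pyruvate dehydrogenase when fat is burned, did not overlap either but was not called. Its vehicle values were -0.000731, -0.00455 and 0.00529 thousandths and its γ-oryzanol values -0.0134, -0.0105 and -0.0244, a difference of -0.0161 (SE 0.00471). Ppara itself had vehicle values of -0.0146, 0.0139 and 0.00072 thousandths and γ-oryzanol values of -0.014, -0.00268 and 0.0132 on the probe set with the highest mean over all liver arrays. Its groups overlapped, as they did on its 2 other probe sets, with differences of -0.00115, 0.0187 and 0.00293. Creb3l3, a liver transcription factor that acts with PPARα on Fgf21, differed by -0.00002 thousandths (SE 0.000596).

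Hao2, a peroxisomal hydroxyacid oxidase, was called higher, although its groups overlapped. Its vehicle values were -1.06, 0.936 and 0.126 thousandths and its γ-oryzanol values 0.795, 0.178 and 1.21. The lowest array was vehicle array 1, and 1 vehicle array exceeded 2 of the γ-oryzanol arrays. The difference was 0.728 thousandths (SE 0.598, pfp 0.0218). Of the 6 sets that leave out 1 array, Hao2 stayed called in 1, that without vehicle array 2, with 1.20, and without vehicle array 1 the difference was 0.197. It was also not called after quantile normalization, at 0.652.

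Cyp4a12a, a fatty acid ω-hydroxylase that is known to be male-specific in mouse liver, had values too widely spread to give a direction. Its vehicle values were 3.19, -16.5 and 13.3 thousandths and its γ-oryzanol values 10.8, -2.66 and -5.42. The groups overlapped throughout, and the mean difference was 0.914 thousandths (SE 9.23), above 0, while rank product called it lower (pfp 0.0286). The difference ran from -7.32 without vehicle array 2 to 7.55 without vehicle array 3, where it was called higher. It stayed called lower without vehicle array 2 or γ-oryzanol array 1, where the difference was -4.04, and without no other array. Cyp4a14 differed by 0.00214 thousandths (SE 0.001) and was not called.

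Enzymes of the oxidation routes differed little from vehicle in the regular arm. Cpt1a, which puts long-chain fatty acids onto carnitine and sets the rate of their entry into mitochondria, had vehicle values of -0.0118, 0.0037 and 0.00808 thousandths and γ-oryzanol values of -0.038, -0.0421 and 0.0387. Of its treated arrays 2 were below the vehicle range and 1 above it, and the difference was -0.0138 (SE 0.0247), with -0.0384 and -0.00517 on its other probe sets. The 10 probe sets of the carnitine shuttle (Cpt1a, Cpt2, Slc25a20 and Crat) ran from -0.0384 to 0.000283 thousandths, and none was called or free of overlap. The 17 of mitochondrial β-oxidation (Acadvl, Acadl, Acadm, Hadha, Hadhb, Hadh, Acaa2, Decr1 and Eci1) ran from -0.0547 to 0.0102, with 8 above 0. Acadm, the medium-chain dehydrogenase, was higher on every treated array, by 0.00055 thousandths, and Decr1, the dienoyl-CoA reductase for unsaturated fatty acids, lower on every one, by -0.00008. Peroxisomal genes other than Hao2 (Acaa1b, Ehhadh, Hsd17b4 and Pex11a) had differences of -0.0164 to 0.000717. The 6 probe sets of the thioesterases Acot1 to Acot4, which split acyl-CoA, ran from -0.0855 to 0.013, and those of Angptl4, an inhibitor of lipoprotein lipase, and Vnn1 from -0.0119 to 0.00115. Cd36, the fatty acid transporter, had 3 probe sets above 0, at 0.000547 to 0.0189, of which 1 did not overlap.

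**Figure D2:**
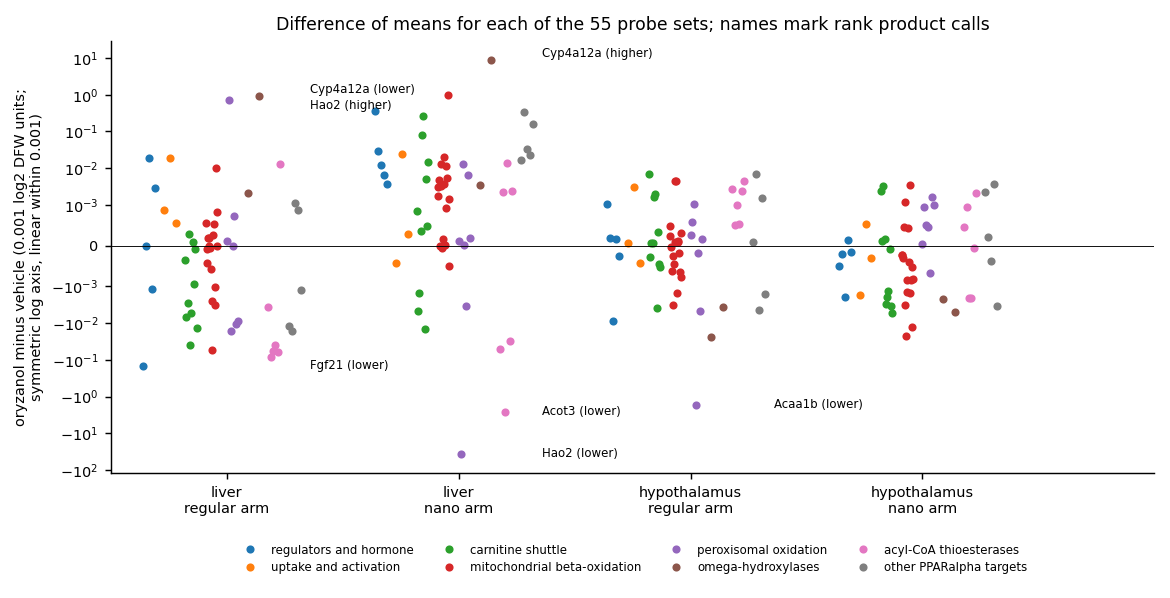
Difference of means (γ-oryzanol minus vehicle, 0.001 log2 DFW units, symmetric log axis) of each of the 55 probe sets in the 4 comparisons, coloured by role, with the names of probe sets called by rank product and the direction of the call. In both hypothalamus comparisons 53 of the 55 lie within 0.01 thousandths of 0, and in Nano-Orz liver 8 lie beyond 0.1.

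In liver after Nano-Orz, 1 probe set was called higher, that of Cyp4a12a, and 2 lower, those of Hao2 and Acot3. The background was 0.297% of the array for calls in the higher direction and 0.182% for the lower one. No member passed limma's adjustment (smallest adjusted p = 1; 0% of all probe sets passed), and 3, of Creb3l3, Acot2 and Angptl4, had an unadjusted p under 0.05. In 6 probe sets all treated arrays were above all vehicle arrays and in 0 below, where 4.34% and 4.67% of all probe sets had no overlap. Among the members, 7 probe sets (12.7%) lay in the 1% of widest spread.

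Hao2, called higher in the regular arm, was called lower here. Its vehicle values were -11.5, -28.9 and 40.4 thousandths and its γ-oryzanol values -43.5, -41.4 and -23.5. Vehicle array 3 stood far above the other 5 arrays, and the groups overlapped, since γ-oryzanol array 3 was above vehicle array 2. The difference was -36.1 thousandths (SE 20.1, pfp 0, limma adjusted p = 1). Hao2 was called in all 6 sets that leave out 1 array, and without vehicle array 3 the difference was -15.9. Its mean vehicle signal was 7.10 log2 DFW units here and 8.77 in the regular arm. The arms seem to have been quantified separately, so these levels were not compared.

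Acot3, a peroxisomal acyl-CoA thioesterase, had vehicle values of 0.0638, -4.68 and 4.62 thousandths and γ-oryzanol values of -6.42, -2.2 and 0.545. Vehicle array 3 was again the highest, and the groups overlapped. The difference was -2.69 thousandths (SE 3.1, pfp 0.0231). The call was lost without vehicle array 1 (-2.66), vehicle array 3 (-0.381) or γ-oryzanol array 1 (-0.827), and the difference was -5.03 without vehicle array 2 and -4.31 without γ-oryzanol array 3. The probe set of Acot3 carries the suffix of the manufacturer for probes that match several transcripts, so its signal may include those of its close relatives. Acot1, Acot2 and Acot4, whose genes are related to Acot3, differed by -0.0502 to 0.0141 thousandths and were not called.

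Cyp4a12a was called higher, with vehicle values of 11.6, -4.02 and -7.55 thousandths and γ-oryzanol values of 5.47, 10.5 and 9.94. Vehicle array 1 was the highest of all 6, and the other 2 vehicle arrays were below every treated one. The difference was 8.63 thousandths (SE 5.62, pfp 0.00361). The call held in 1 of the 6 sets that leave out an array, that without vehicle array 1 (14.4), and was lost in the others, at 4.86 without vehicle array 3 and up to 10.2 without γ-oryzanol array 1, with a pfp of up to 0.0843.

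**Figure D3:**
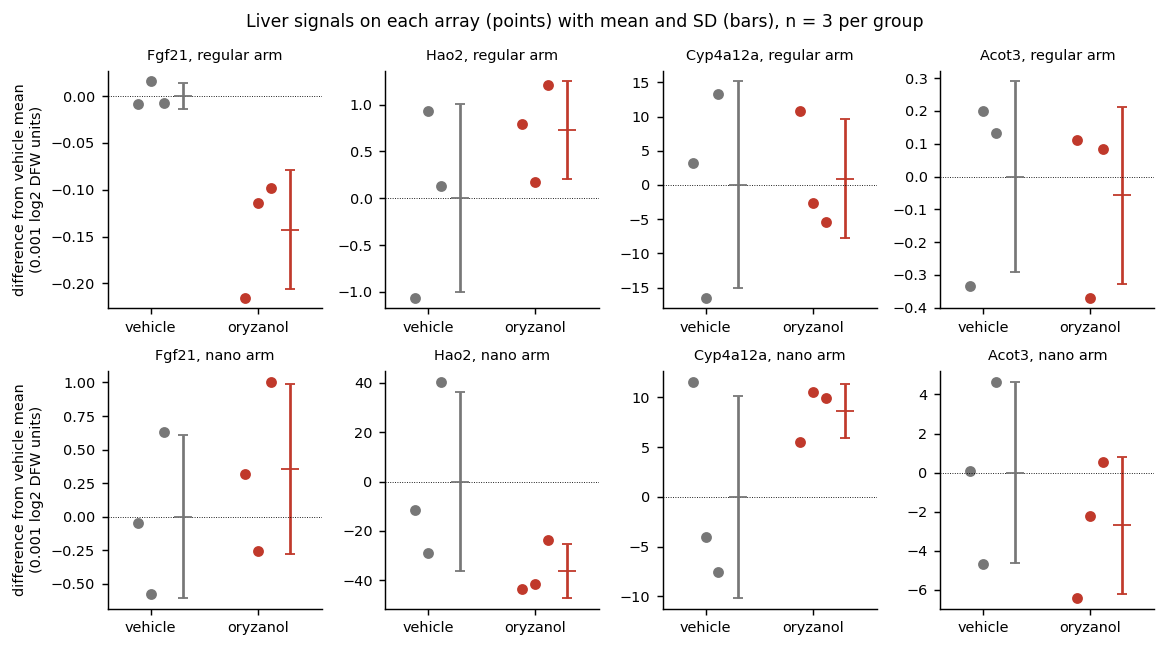
Signals of Fgf21, Hao2, Cyp4a12a and Acot3 on each liver array as the difference from the vehicle mean (0.001 log2 DFW units), with the mean and SD of 3 arrays beside the points, in the regular arm (top) and the Nano-Orz arm (bottom). Of the 8 panels, only Fgf21 in the regular arm has no overlap between γ-oryzanol and vehicle, and axes differ between panels.

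Genes known to differ between male and female mouse liver were called alongside these 3 members in the same arrays. Both lists of such genes were chosen with earlier results of these data known, so their counts are not independent support. Over the whole array, 0.297% of probe sets were called higher and 0.182% lower in this arm. Of 25 probe sets of male-biased genes, 8 were called higher and 0 lower, with differences such as 7.11 thousandths for Cyp2d9 and 9.78 for the complement gene C8a. Of 23 probe sets of female-biased genes, 0 were called higher and 8 lower, with -874 thousandths for the sulfotransferase Sult2a2, -67.4 for Cyp2b13 and -34.1 for Hamp2. Vehicle array 3 was 1195 thousandths above the vehicle mean in Sult2a2 and at -14.7 from it in C8a. It was the lowest of the 6 arrays in all 8 called male-biased probe sets and the highest in 6 of the 8 called female-biased ones. The other 2 were those of Cyp2b10, where it was the lowest, at -3.73 and -2.70 thousandths, and the differences were -0.4 and -0.294. In each list the groups overlapped in 7 of the 8. Mean signals of the female-biased list ran from 7.50 to 7.59 log2 DFW units on the vehicle arrays and from 7.48 to 7.50 on the treated ones, and those of the male-biased list from 7.830 to 7.833 and from 7.832 to 7.833. Of the male-biased probe sets, 2 were called higher without vehicle array 3 or γ-oryzanol array 3 and 1 without γ-oryzanol array 1 or 2, and of the female-biased ones 5 were called lower without vehicle array 3 and 3 without vehicle array 1. After quantile normalization 3 male-biased probe sets were called higher and 4 female-biased ones lower. The part of this difference in the calls of Hao2, Acot3 and Cyp4a12a was not tested. In the regular arm 0 of the male-biased probe sets were called, and 2 of the female-biased ones were called higher, or 6 without vehicle array 2 and 0 without any other 1 array.

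**Figure D4:**
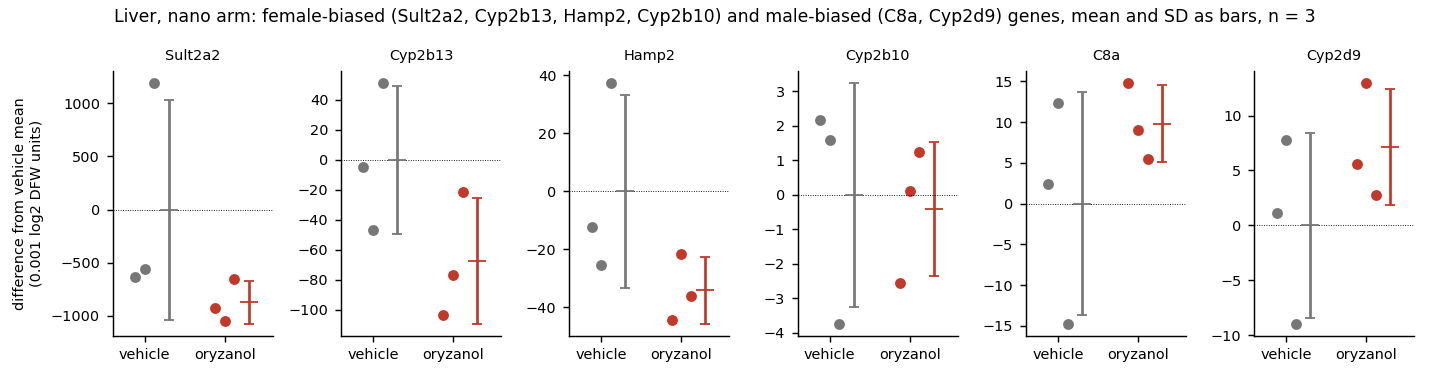
Signals of 4 female-biased and 2 male-biased genes on the Nano-Orz liver arrays as the difference from the vehicle mean (0.001 log2 DFW units), with the mean and SD of 3 arrays. Vehicle array 3 is the highest of all arrays in Sult2a2, at 1195 thousandths above the vehicle mean, in Cyp2b13 and in Hamp2, and the lowest in Cyp2b10, C8a and Cyp2d9.

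Fgf21 was not called after Nano-Orz. Its vehicle values were -0.0508, -0.58 and 0.631 thousandths and its γ-oryzanol values 0.315, -0.256 and 1.01, and the groups overlapped, with a difference of 0.355 (SE 0.467). Without vehicle array 3, however, it was called higher, at 0.670. The difference fell to 0.0645 without vehicle array 2 and to 0.0292 without γ-oryzanol array 3, and it rose to 0.660 without γ-oryzanol array 2, with no call in these. Ppara had vehicle values of -0.00246, -0.0113 and 0.0137 thousandths and γ-oryzanol values of 0.0219, -0.0213 and 0.0187, a difference of 0.00644 (SE 0.0145), with 0.0126 and 0.00362 on its other probe sets. Cpt1a had vehicle values of 0.00913, -0.00406 and -0.00507 thousandths and γ-oryzanol values of 0.0177, 0.00394 and 0.0213. Only 1 vehicle array reached into the treated range, and the difference was 0.0143 (SE 0.00646), with 0.0812 and 0.272 on its other probe sets. Creb3l3 did not overlap, with 0.0029, 0.00517 and -0.00808 thousandths on vehicle and 0.033, 0.0249 and 0.0295 on γ-oryzanol arrays. Its difference of 0.0291 thousandths (SE 0.00436) had an unadjusted limma p of 0.00145 and an adjusted p of 1, and rank product did not call it.

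The other probe sets without overlap in Nano-Orz liver were that of Acadm, 1 each of the 2 of Decr1 and of Acot2, and 1 each of the 3 of Hadhb and of Hadh, the hydroxyacyl-CoA dehydrogenase of mitochondria. Their differences were 0.00174 thousandths for Acadm, 0.0127 for Hadhb, 0.00143 for Hadh, 0.00488 for Decr1 and 0.0141 for Acot2, and none was called. The remaining probe sets of Hadhb were at 0.0205 and 0.00359, those of Hadh at 0.000172 and -0.00049, that of Decr1 at 0.0113 and that of Acot2 at -0.0297. Acaa2, the last thiolase of mitochondrial β-oxidation, had 1 probe set with 0.957 thousandths (SE 1.03), whose values were 0.912, 0.909 and -1.82 on vehicle and 0.318, 0.295 and 2.26 on γ-oryzanol arrays. Its 2 other probe sets were at 0.00321 and -0.00005, so the gene gave no common value. Pdk4 was at 0.331 (SE 0.278), with γ-oryzanol array 2 the highest at 0.883 and the groups overlapping. Angptl4 had 1 probe set at 0.162 (SE 0.0573), with vehicle values of -0.0364, 0.0577 and -0.0213 and γ-oryzanol values of 0.24, 0.19 and 0.0565, which overlapped by 1 array, and another at 0.0166. The 2 probe sets of Vnn1 were at 0.0324 and 0.0228, and that of Cyp4a14 at 0.00356 (SE 0.015).

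Taken by sign alone, 43 of the 55 probe sets had a positive difference in Nano-Orz liver and 23 in regular liver, against 48.0% and 52.0% of all probe sets, but quantile normalization turned these counts to 11 and 7 and median centring turned them to 52 and 12. The members' median differences were 0.00321 and -6.97e-05 thousandths, against -4.77e-05 and 5.9e-05 over all probe sets. Sign counts therefore moved with the scaling of the arrays. Quantile normalization also set some differences to exactly 0, such as that of Ppara in both arms, and these do not count as positive. In the model over all 12 liver arrays, no member passed the test of a difference between the effects of both preparations at an adjusted p under 0.05, nor did any other probe set (0%). The smallest value was that of Creb3l3, with a difference between the arms of 0.0291 thousandths and an adjusted p of 0.413. For Fgf21 that difference was 0.497 (adjusted p = 0.987), for Hao2 -36.9 (0.96), for Cyp4a12a 7.72 (0.99) and for Acot3 -2.63 (0.987), all by limma over 45101 probe sets. The preparations also differed in dose and may have differed in schedule, which this test does not separate from encapsulation. The 3' control probe set of Gapdh exceeded the 5' one by 0.0957 log2 DFW units in regular and 0.572 in Nano-Orz liver. For Actb these gaps were 0.957 and 1.46. The arms seem to have been quantified separately, and whether their RNA differed in quality was not tested.

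In hypothalamus after regular γ-oryzanol, 1 of the 55 probe sets was called, that of Acaa1b, in the lower direction, and 0 were called higher. The background was 0.388% of the array for lower calls and 0.166% for higher ones. No member passed limma's adjustment (smallest adjusted p = 0.871; 0% of all probe sets), and 2, of Acaa1b and Crat, had an unadjusted p under 0.05. In 1 probe set, 1 of the 2 of Cpt2, the inner-membrane carnitine palmitoyltransferase, every treated array was above vehicle, and in 5 every one was below (1 of 3 each of Cpt1a and Crat, Acaa1b, Cyp4a12a and Cyp4a14), where 5.87% and 5.04% of all probe sets had no overlap.

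Acaa1b had vehicle values of -0.876, -0.315 and 1.19 thousandths and γ-oryzanol values of -1.61, -1.32 and -2.01. All treated arrays were below all vehicle arrays, and vehicle array 3 was the highest. The difference was -1.65 thousandths (SE 0.6, pfp 0.00182, limma adjusted p = 0.871). Without vehicle array 3 the difference was -1.05 and the pfp 0.0517, so that the call was lost, and it was kept without each of the other 5 arrays. At 6.46 log2 DFW units the probe set fell below the filter on low values and was then not tested. Cyp4a14 had vehicle values of -0.0123, -0.00412 and 0.0164 thousandths and γ-oryzanol values of -0.023, -0.0315 and -0.0158. It did not overlap, vehicle array 3 was again the highest, and its difference of -0.0234 (SE 0.00893) was not called.

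Some genes that mark hepatocytes were called lower in the same arrays. Of 14 hepatocyte marker probe sets, 3 were called lower and 0 higher, those of Alb, which encodes albumin, of Serpina1c and 1 of Ttr, and 13 had a negative difference, with a median of -0.0693 thousandths. Ttr is also on the choroid plexus list, so in hypothalamus its probe sets do not mark hepatocytes alone. In the Nano-Orz arm the list had 4 lower calls, all of Ttr. The list was chosen with earlier results of these data known. Alb had vehicle values of -29.7, 0.373 and 29.3 thousandths and γ-oryzanol values of -54.0, -39.7 and -33.2. As in Acaa1b, vehicle array 3 was the highest and no treated array reached the vehicle arrays, with a difference of -42.3 (SE 16.8). Serpina1c differed by -2.17 thousandths without overlap, while Ttr overlapped, with vehicle values of -2.73, -1.49 and 4.22, γ-oryzanol values of -3.12, -3.38 and 2.83 and a difference of -1.22 (SE 2.73). Of the 3 called markers 2 thus had no overlap, and 0 of the 3 had an unadjusted limma p under 0.05. Mean signals of the list were 6.912 to 6.919 log2 DFW units on vehicle arrays and 6.910 to 6.914 on treated ones, and 8 of the 14 probe sets had a level under 7. Of these markers, 1 was called lower without vehicle array 3 and 6 without γ-oryzanol array 3. Fabp1, the fatty acid binding protein of liver and a PPARα target outside the set, was called lower on both of its probe sets, by -0.748 and -1.72 thousandths, and on 1 of them without vehicle array 2 or 3. The part of liver transcripts in the call of Acaa1b was not tested. Liver Acaa1b itself differed by 0 thousandths after regular γ-oryzanol and by 6.67e-06 after Nano-Orz.

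**Figure D5:**
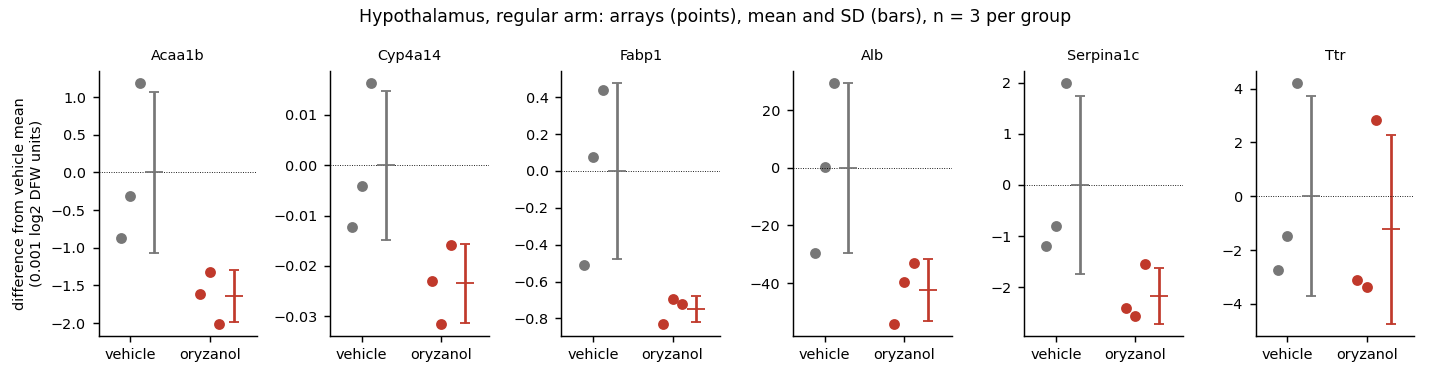
Signals of Acaa1b and Cyp4a14 and of the liver-expressed genes Fabp1, Alb, Serpina1c and Ttr on the hypothalamus arrays of the regular arm, as the difference from the vehicle mean (0.001 log2 DFW units), with the mean and SD of 3 arrays. Every γ-oryzanol array lies below every vehicle array in each panel except that of Ttr, where they overlap, and vehicle array 3 is the highest in every panel.

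In hypothalamus after Nano-Orz, 0 of the 55 probe sets were called in either direction by rank product, against a background of 0.224% for higher calls and 0.745% for lower ones, and 0 passed limma's adjustment (smallest adjusted p = 0.788; 0% of all probe sets). Without adjustment 1 had a limma p under 0.05, a probe set of Angptl4 with a difference of -0.00339 thousandths, the only one without overlap (vehicle -0.00101, 0.00114 and -0.00013; γ-oryzanol -0.00426, -0.00431 and -0.00161), where 6.18% of all probe sets were free of overlap upward and 4.95% downward. The members ran from -0.0231 thousandths, in Acaa2, to 0.0037, in Vnn1. Acaa1b, called in the regular arm, differed by 0.000446 (SE 0.000664), and Cyp4a14 by -0.00217. The difference of Acaa1b between the arms was 1.65 thousandths, with an adjusted p of 0.646 by limma, and no member passed the test of a difference between the arms, as 0.00443% of all probe sets did. Positive differences were found in 32 members in the regular arm, 14 after median centring, and in 22 in the Nano-Orz arm, 44 after quantile normalization and 55 after median centring. The members' medians were 9.2e-05 and -0.000234 thousandths, against -1.47e-05 and 2.43e-05 over all probe sets.

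Ppara had a vehicle signal of 7.21 log2 DFW units and Fgf21 of 6.60 in hypothalamus of the regular arm, and their groups overlapped in both arms. Ppara differed by -0.000252 thousandths after the regular form and -0.000163 after Nano-Orz. Fgf21 differed by 0.00108 and -0.000502. Cpt1a had -0.000524 thousandths in the regular arm, without overlap, while its other probe sets were above 0 at 0.0016 and 0.00194, and -0.00515 after Nano-Orz, with overlap. Pdk4 had 0.00675 and 0.000209, and Hao2 0.000573 and 0.000943.

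Other genes of the pathway gave few calls. Of a list of 77 further genes, 69 had 123 probe sets. In liver 0 of these were called in either direction in both arms by rank product and 0 passed limma's adjustment, with 5 and 7 under an unadjusted p of 0.05. In hypothalamus the 2 probe sets of Fabp1 were called lower in the regular arm and 0 others in either arm. Of the 123, 1 was free of overlap upward and 3 downward in regular liver (5.02% and 4.23% of all probe sets). In Nano-Orz liver these were 10 and 1 (4.34% and 4.67%). In hypothalamus they were 3 and 17 in the regular arm (5.87% and 5.04%) and 8 and 4 in the Nano-Orz arm (6.18% and 4.95%). These counts were not tested. Of the stellate cell and fibroblast probe sets in liver, 1 was called lower in the regular arm (Lrat) and 3 higher in the Nano-Orz arm (Col1a2, Col3a1 and Lum). The groups overlapped in all of these calls. Of the 4 probe sets of the adipocyte list, 1 was called higher in Nano-Orz liver, that of Cidea, by 25.0 thousandths and without overlap. As the only call of its list, Cidea is not read here as a sign of adipocytes. In hypothalamus 12 of 27 thalamus marker probe sets were called lower after the regular form, and 12 of 13 of the choroid plexus after Nano-Orz, with 6 of 18 stellate cell and fibroblast ones. The groups overlapped in all 12 of the thalamus calls, where γ-oryzanol array 3 was above every vehicle array and array 2 the lowest of the 6, as in Prkcd with -50.7, -154 and 57.3 thousandths. They overlapped in 11 of the 12 of the choroid plexus, where vehicle array 3 was the lowest vehicle array in all 12. Of the latter, 4 were of Ttr, which is also on the hepatocyte list. Whether these had a part in the members' values was not tested.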

How the data were processed

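Per the labels, 24 Affymetrix arrays were made from 3'-amplified RNA of liver and hypothalamus. The authors deposited log2 signals made with DFW, it seems in a separate run for each arm of each tissue, and these lie between 5.26 and 16.4. Probe-level data and detection calls were not used here. Another 4 tables, with 24 sample columns whose codes no label maps, were not used. Values were taken as deposited. Arrays carry no read depth, so their number limits the precision. Probe sets were named through the platform annotation, of which 34958 carry 1 symbol, 932 several and 9211 none.

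Rank product followed the authors' methods. The pairs and permutations are not stated, and all 9 pairs and 100 permutations within arrays were taken, over 45101 probe sets in each direction. Because the unit is log2 signal, limma 3.58.1 (R 4.3.3) gave differences, SE and Benjamini-Hochberg adjusted p within the 6 arrays of a comparison and, over 12 arrays, the difference between arms. For a single value in groups of 3, an exact permutation test (two-sided) can reach no p below 0.1. The labels call the replicates biological. Scripts, tested on simulated data, ran in Python 3.11.15 with pandas 2.3.3, matplotlib 3.10.9, scipy 1.17.1 and numpy 2.4.6.

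The members, the further pathway genes and the marker lists (hepatocyte, hypothalamus, Kupffer cell, liver and brain endothelium, fibroblast, cholangiocyte, adipocyte, astrocyte, ependymal, choroid plexus, thalamus, and liver genes biased to males or to females) were chosen with earlier results of these data known. Every member is named. Values on each array are given for members called in a comparison, for Ppara, Fgf21 and Cpt1a in liver, and also for Pdk4, Creb3l3, Acaa2, Cyp4a14, Angptl4 and Decr1, chosen after their values were seen. Other genes are named only where called, at most 6 of the pathway and 4 of each marker list. Where a gene had more than 1 probe set, that of highest mean over the 12 arrays of a tissue stood for it. Kupffer cell, cholangiocyte and liver endothelium markers had 0 calls by rank product in all 4 comparisons. Astrocyte markers had 1 call in each liver arm and 2 in Nano-Orz hypothalamus. Brain endothelium and ependymal markers had 1 call each, in regular hypothalamus. Hypothalamus markers had 1 call in the regular and 2 in the Nano-Orz arm.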

Additional observations from a re-analysis of the deposited data

Results flagged for a closer look

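Decr1 in liver differed from vehicle in opposite directions in the arms, with every γ-oryzanol array on 1 side of every vehicle array in each. Over all probe sets, 4.23% had every treated array below vehicle in regular liver and 4.34% every one above in Nano-Orz liver. How many did both was not counted. The stronger probe set of Decr1, at 12.19 log2 DFW units in the regular arm, had vehicle values of -0.00002, -0.00002 and 0.00004 thousandths and γ-oryzanol values of -0.00011, -0.0001 and -0.00003. The groups there were apart only in the last printed digit, -0.00003 against -0.00002, so this separation gives no firm direction. In the Nano-Orz arm the vehicle values were 0.00163, -0.00299 and 0.00136 and the γ-oryzanol values 0.00582, 0.00225 and 0.00657. The difference between the effects, Nano-Orz minus regular, was 0.00496 thousandths, with an unadjusted limma p of 0.0422 and an adjusted p of 0.896, so it did not pass the test across all probe sets. The second probe set of Decr1 overlapped in both arms, with differences of -0.00103 and 0.0113 thousandths.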

How the results depend on the processing

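The calls among the members rested on few arrays and on the test. limma with adjustment and the methods' t-test after Benjamini-Hochberg gave 0 members in every comparison and direction. The methods' t-test without adjustment gave 0 lower in Nano-Orz liver, against 2, and 1, Angptl4, in Nano-Orz hypothalamus, against 0. It gave other genes elsewhere: Cd36 higher and Fgf21 and Pdk4 lower in regular liver, Creb3l3 higher in Nano-Orz liver and Crat lower in regular hypothalamus, of which Fgf21 alone was also a rank product call. A pfp under 0.01 left 0 higher and 0 lower in regular liver and 1 lower in Nano-Orz liver. Quantile normalization left 0 lower in regular liver and called Acot1 higher there in place of Hao2, and the filter on low values 0 in regular hypothalamus. Deviations of same-numbered arrays had correlations of -0.118 to 0.131 in liver and of 0.0391 to 0.269 in hypothalamus. In both arms of hypothalamus all were positive, and each of the 3 vehicle arrays correlated best with the γ-oryzanol array of its own number. No comparison had every pair above the cutoff of 0.1, so the numbers were not taken to pair the mice. Whether they do in hypothalamus is not settled by this. With a replicate block over the 3 same-numbered pairs, 2 members were called higher and 1 lower in regular liver, with Cyp4a12a now called higher at the same difference of 0.914 thousandths, and 4 higher in Nano-Orz liver (Angptl4, Cyp4a12a, Fgf21 and Pdk4). Leaving out each array in turn gave 0 to 1 higher and 0 to 3 lower in regular liver, 0 to 2 and 1 to 2 in Nano-Orz liver, and 0 to 1 lower in regular hypothalamus. Cyp4a12a in regular liver ran from -7.32 to 7.55 thousandths. Positive differences moved most: quantile normalization gave 7 in regular liver, 11 in Nano-Orz liver, 29 in regular hypothalamus and 44 in Nano-Orz hypothalamus, median centring gave 12, 52, 14 and 55 in the order of the report, and leaving out arrays gave 16 to 32, 32 to 46, 27 to 35 and 20 to 24 in that order. The difference between the arms in liver was called for 1 member, Acot1, after quantile normalization (limma adjusted p = 3.76e-24), against 0. Quantile normalization gives the arrays of an arm the same set of values, so a probe set that keeps its rank loses its spread. Ppara differed by exactly 0 thousandths in both liver arms after it, and so did Cpt1a in Nano-Orz liver. This p therefore cannot be read as strength of evidence for Acot1. The sign counts under other scalings and the runs on marker lists were added after seeing the data. In Nano-Orz liver 1 probe set of Cpt1a was called higher without vehicle array 1, 1 each of Acaa2 and Angptl4 without vehicle array 2, and that of Fgf21 without vehicle array 3. The Cpt1a probe set of highest mean was not the one called, at 0.0189 thousandths without vehicle array 1. In regular liver 1 of the 2 probe sets of Acot2 was called lower without γ-oryzanol array 1, and 1 of the 2 of Acot4 without γ-oryzanol array 3. The cause of these moves was not tested. With 3 arrays a group and signals drawn together by DFW, small changes may not be detectable.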
